A study of Homo sapiens with 93 samples.

Results

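Polycomb repressive complex 2 (PRC2) is the enzyme that places methyl groups on lysine 27 of histone H3 and so keeps developmental genes silent. The 9 genes described here encode its subunits and were taken by identifier from 14000 gene features in a table of H3K36me3 counts. They are EZH2 and EZH1, which carry the catalytic site, EED, SUZ12 and RBBP4, which complete the core, and JARID2, PHF1, MTF2 and PHF19, which are accessory subunits. All 9 were present, and all 9 passed the filter of at least 10 counts in at least 47 libraries, as did 13915 features in all.

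The libraries came from 93 lymphoblastoid cell lines, which are B cells from human donors made to grow indefinitely by infection with Epstein-Barr virus. They form 1 group, with 1 library per line and no untreated or second condition. H3K36me3, the trimethylation of lysine 36 on histone H3, was mapped with CUT&Tag, a method whose antibody brings a transposase to a histone mark to cut and tag the DNA there. Per the labels, 4 culture batches held roughly 20 to 35 lines each in medium with 20% serum, every sample was a frozen aliquot of 100000 cells, and amplification took 14 PCR cycles. The labels do not tie a line to its batch, so batch and line cannot be told apart, and all p-values measure the spread between these single libraries. Library totals ran from 2842955 to 24325746 counts, with a median of 14883653. The B cell identity of the lines was not checked against marker genes, because 0 of the features carried a gene symbol in the tables used here.

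EZH2 and EZH1 are alternative catalytic subunits: EZH2 is known for its high level in dividing cells and in germinal centre B cells, and EZH1 for its presence in resting cells. EED reads the methyl mark that PRC2 makes and stimulates the enzyme, SUZ12 is the scaffold of the core, and RBBP4 is a histone-binding protein that also serves in other chromatin complexes. JARID2 defines one form of the complex, and the Polycomb-like proteins PHF1, MTF2 and PHF19 define the other. H3K36me3 is laid down over transcribed gene bodies by SETD2, which travels with RNA polymerase II. Nucleosomes that carry it are poor substrates for PRC2, and the Tudor domains of the Polycomb-like proteins bind it. The counts below measure the mark on the PRC2 genes themselves, not the activity of the complex, and in bulk libraries a change in every cell and a change in the share of marked cells cannot be told apart.

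EZH2 (ENSG00000106462.11) lies at chr7:148807383-148884291 on the minus strand (RefSeq, GRCh38.p14), a span of 76.9 kb. EZH1 (ENSG00000108799.13) lies at chr17:42700275-42745040 on the minus strand and spans 44.8 kb, and SUZ12 (ENSG00000178691.11) lies at chr17:31937007-32001038 on the plus strand and spans 64.03 kb. The 250 bases before the annotated start of each gene are printed 5′ to 3′ because EZH2 and SUZ12 are the catalytic and core subunit whose marks moved together across lines, while EZH1 was called with no other member by the rule and model used below, though it was with 5 when library total and dynamic range were left out. In that fit on EZH1, 32.1% of all features were called higher. Capitals mark 2 kinds of motif searched on both strands: CCAAT, and the E2F-type words TTTCCCGC, TTTCGCGC, TTTGCCGC and TTTGGCGC. The windows are chr7:148884292-148884541 (minus strand), chr17:31936757-31937006 (plus strand) and chr17:42745041-42745290 (minus strand), in the order given.
EZH2: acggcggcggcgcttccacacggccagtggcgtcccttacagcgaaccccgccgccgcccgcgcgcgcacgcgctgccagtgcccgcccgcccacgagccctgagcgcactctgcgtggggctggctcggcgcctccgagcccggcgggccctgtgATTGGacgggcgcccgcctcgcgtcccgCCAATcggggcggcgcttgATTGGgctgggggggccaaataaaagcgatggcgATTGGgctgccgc
SUZ12: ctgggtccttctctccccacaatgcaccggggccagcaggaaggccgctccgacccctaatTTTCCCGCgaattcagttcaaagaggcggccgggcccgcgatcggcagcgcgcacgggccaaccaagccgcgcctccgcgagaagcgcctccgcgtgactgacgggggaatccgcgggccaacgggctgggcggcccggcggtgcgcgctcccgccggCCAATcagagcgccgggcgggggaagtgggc
EZH1: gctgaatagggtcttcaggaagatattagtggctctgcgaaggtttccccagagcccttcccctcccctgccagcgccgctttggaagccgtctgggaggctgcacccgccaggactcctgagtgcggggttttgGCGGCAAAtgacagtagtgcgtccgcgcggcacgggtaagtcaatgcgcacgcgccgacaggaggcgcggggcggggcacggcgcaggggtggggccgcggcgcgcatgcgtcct
The EZH2 window held 4 CCAAT words and 0 E2F-type words, with a GC content of 75.6%. The SUZ12 window held 1 of each with a GC content of 72.8%, and the EZH1 window held 0 CCAAT words and 1 E2F-type word. Among all 35116 RefSeq windows of this length, 32.01% held a CCAAT word, 0.874% held at least 4, and 2.79% held an E2F-type word. Among members whose windows are not printed, RBBP4 held 2 CCAAT words, EED and JARID2 1 each and MTF2 0, and each held 0 E2F-type words. PHF1 and PHF19 had no window at the annotated start. These are matches of letters and not sites shown to be bound, and no link between them and the marks was tested.

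The rows of the 9 members follow chromosome name and start position, while the places of the other rows on the genome were not checked. In the order of the rows, 2 features bear on the members. First, rows after 3200 and up to 7700, where SUZ12 and EZH1 lie, had a median level of 4.85 log2 CPM, against 5.74 in the first 1900 rows and 5.77 in rows after 9600. CPM is the count scaled to a fixed library total. Levels of the members and all tests used totals adjusted by edgeR's TMM factors, which ran from 0.919 to 1.05. Medians over rows, the size of the fall described next and the EED levels of libraries classed by it used unadjusted totals. Second, counts fell at a row that differed between libraries; fitted for each library within rows after 1900 and up to 3200, this row lay between 2017 and 3047, and EED is row 2681. These steps are facts of the table, and their cause was not tested.

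EED (ENSG00000074266.21), at chr11:86244753-86287615 on the plus strand with a span of 42.9 kb, showed the widest range of the 9 genes. Its level ran from 24.2 CPM in the lowest line through a median of 54.03 to 141 in the highest, a 5.82-fold range. The counts behind these levels ran from 162 to 2025, with a median of 649. The row at which each library's counts fell was located from the other rows, leaving out EED and the 1 row on each side of it. In the 30 libraries whose counts fell at least 25 rows after EED, EED measured 5.81, 6.33 and 7.06 log2 CPM at the lowest, median and highest. In the 42 libraries whose counts fell at least 25 rows before it, the same values were 4.64, 5.26 and 6.13. The 21 libraries with the fall within 24 rows of EED spanned 4.87 to 6.69.

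The 2 outer classes of libraries overlapped little: 3 of the 42 lower libraries exceeded the lowest of the 30. Their means were 6.39 ± 0.29 and 5.29 ± 0.33 log2 CPM (SD, n = 30 and 42), a difference of 1.10. No test is given, because the classes were set from the rows around EED, which fell by a common 0.86 log2 at the same positions. The 2 classes also differed in depth, with median totals of 16814152.5 and 8882671.5 counts. The part of depth in this difference was not tested, and the levels of EED are therefore given with and without the class of the library.

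**Figure D1:**
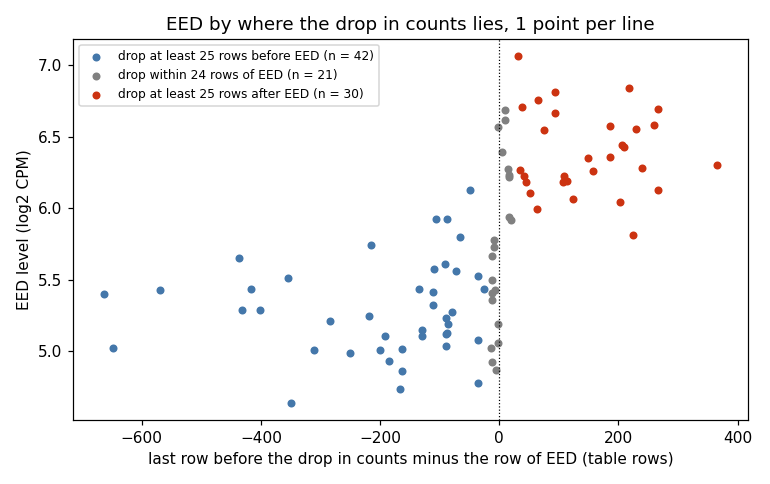
Level of EED (log2 CPM, vertical axis) in each of 93 lines against the distance, in table rows, from the EED row to the row where that library's counts fell (horizontal axis, 0 is EED). Totals were not adjusted by TMM factors here. The 42 libraries on the left have a mean of 5.29 and the 30 on the right a mean of 6.39 log2 CPM.

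EZH2 measured 75.5 CPM in the lowest line, 117 at the median and 156 in the highest, from counts of 382 to 3064. EZH1 measured 67.5, 81.1 and 103 CPM, from counts of 268 to 2177. The ranges of the 2 catalytic genes overlapped, but within a line EZH2 stood above EZH1 in 90 of 93 lines. EZH1 lies in the stretch of rows with the lower median level and EZH2 does not: the 200 rows on each side of them had medians of 4.87 and 5.70 log2 CPM, a gap wider than the median ratio that follows. The log2 ratio of EZH2 to EZH1 ran from -0.32 through a median of 0.50 to 0.90, with a mean of 0.49 ± 0.21 (SD, n = 93). That ratio compares counts per gene; per kilobase of gene span the order turned, with medians of 1.52 CPM per kb for EZH2 and 1.81 for EZH1.

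SUZ12 measured 78.1, 118 and 180 CPM at the lowest, median and highest line. RBBP4 (ENSG00000162521.19), at chr1:32651208-32686211 on the plus strand (35.0 kb), measured 120, 183 and 285 CPM. Both core genes thus spread a little over 2-fold between lines, with maxima 2.30 and 2.38 times their minima, while EED spread 5.82-fold. SUZ12 has the pseudogenes SUZ12P1 and SUZ12P2, EED has EEDP1, and RBBP4 has 7 pseudogenes and overlaps SYNC in the annotation. Reads of these genes could have been shared with those copies or neighbours, since no source used here gives the counted intervals.

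JARID2 (ENSG00000008083.14), at chr6:15246069-15522042 on the plus strand, is the longest gene of the set at 276 kb and had the highest counts. It measured 169 CPM in the lowest line, 420 at the median and 645 in the highest, a 3.83-fold range, and its mean level stood at percentile 98.9 of all features. The Polycomb-like gene MTF2 (ENSG00000143033.18), at chr1:93079283-93139076 on the plus strand (59.8 kb), measured 92.1, 143 and 221 CPM. PHF19 (ENSG00000119403.15), at chr9:120855651-120904128 on the minus strand (48.5 kb), measured 114, 178 and 274 CPM and overlaps TRAF1 in the annotation, so reads of these neighbours could not be separated. PHF1 (ENSG00000112511.17), at chr6:33410412-33416439 on the plus strand, is the shortest gene at 6.03 kb and measured 21.6, 34.6 and 52.4 CPM. The mark on each of the 3 Polycomb-like genes spread about as much as that on SUZ12 and RBBP4, with maxima 2.40 to 2.43 times the minima.

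**Figure D2:**
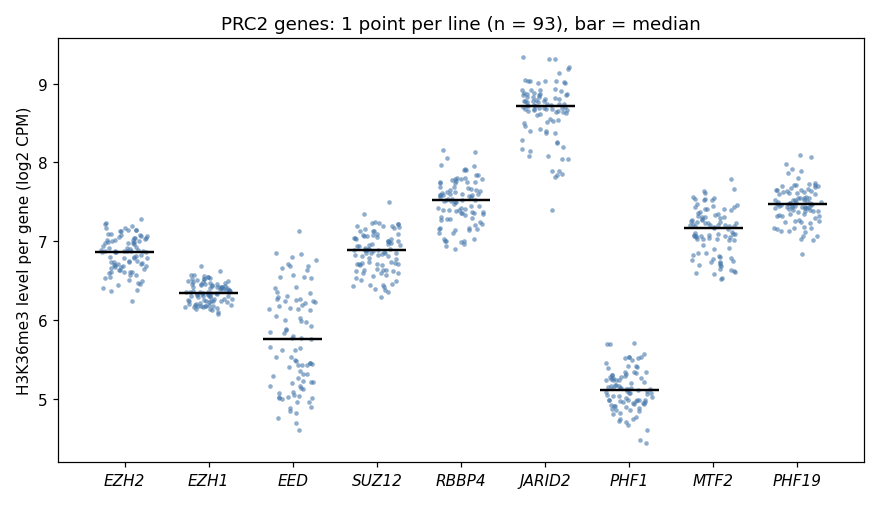
Level of H3K36me3 (log2 CPM per gene, vertical axis) on the 9 PRC2 genes (horizontal axis), with 1 point per line (n = 93) and a bar at the median. EZH1 has the narrowest cloud (67.5 to 103 CPM) and EED the widest (24.2 to 141 CPM).

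Per kilobase of gene span the order was PHF1, RBBP4, PHF19, MTF2, SUZ12, EZH1, JARID2, EZH2 and EED. Medians in that order were 5.74, 5.24, 3.67, 2.40, 1.84, 1.81, 1.52, 1.52 and 1.26 CPM per kb. The step from RBBP4 to PHF19 held in 89 of 93 lines, and the steps from PHF19 to MTF2 and from MTF2 to SUZ12 each held in 92. Other neighbours in the order were not separated beyond their spread. PHF1 was above RBBP4 in 63 lines (median difference 0.14 ± 0.34 log2, SD over lines), SUZ12 above EZH1 in 45, and JARID2 above EZH2 in 49. EZH1 was above JARID2 in 77 lines and EZH2 above EED in 57. SUZ12 and EZH1 lie in the stretch of rows with the lower median level, so their places relative to members in other rows include that difference. The last place of EED likewise includes the fall at its row. Its median was 6.33 log2 CPM in the 30 libraries with the fall at least 25 rows after it. In the 42 with the fall at least 25 rows before it, the median was 5.26.

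EED and JARID2 varied between lines beyond the trend of all features, and the other 7 members did not pass that test. The test was edgeR's goodness-of-fit of each feature against the dispersion trend, with library total and dynamic range in the model and Benjamini-Hochberg adjustment. Features were ranked by mean level, and dynamic range is the gap in log2 CPM between the medians of their top and bottom quintiles in a library, and it ran from 4.17 to 4.99 over libraries. EED had an adjusted p of 5.17e-31 in edgeR's goodness-of-fit test, with an own dispersion 2.02 log2 above the trend. JARID2 had an adjusted p of 2.26e-09 in the same edgeR test, with an own dispersion 1.16 log2 above the trend. The count of 2 of 9 members stands beside 18.6% of all features called. With the class of library at the EED row added to the model, an alternative chosen after seeing the data, the dispersion of EED was 1.09 log2 above the trend and it was still called. The 21 libraries with the fall within 24 rows of EED, which spanned 4.87 to 6.69 log2 CPM, entered as 1 class. The fall was not removed among them, so this call cannot tell the spread of EED apart from the fall. DESeq2's dispersion outliers, a stricter criterion, included 0 of the 9 members and 255 of all features.

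EZH1 was at the other end of the range. Its coefficient of variation over lines was 0.0922, against 0.155 for EZH2 and 0.205 for the median feature, and counting error alone gives 0.0292 at its median count. Its own dispersion lay under the trend with a log2 ratio of -3.09, at percentile 0.172 of all features. SUZ12 and RBBP4 also lay under the trend, with log2 ratios of -1.70 and -1.39. EZH2, MTF2, PHF19 and PHF1 lay closer to it, at -0.62, -0.53, -0.42 and -0.03. The goodness-of-fit test looks for excess spread alone, so low spread is given as a description. The median log2 ratio of the 9 members was -0.53, beside -0.55 over all features.

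**Figure D3:**
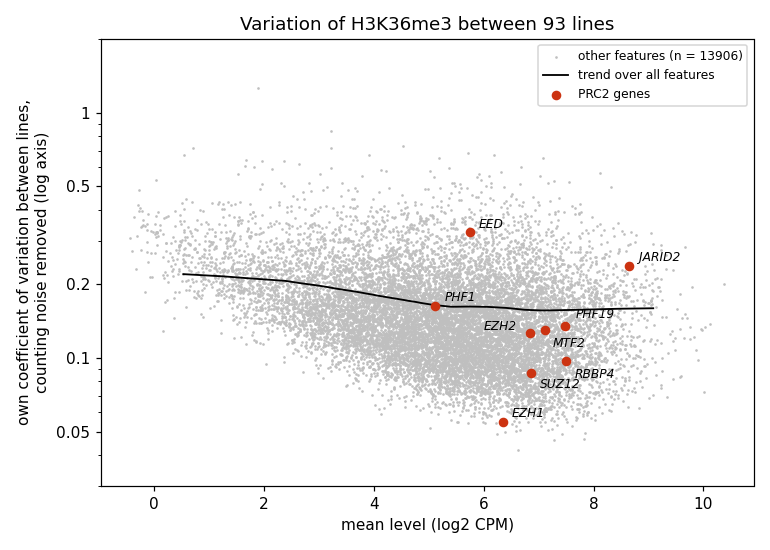
Own coefficient of variation between 93 lines with counting noise removed (vertical axis, log scale) against mean level (log2 CPM, horizontal axis) for 13906 other features in grey and the 9 PRC2 genes in red. The black line is the trend; EED and JARID2 sit above it and EZH1 far below it.

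The members moved with technical measures of the libraries. Log2 library total and dynamic range were both in the model, and over libraries they were correlated at r = -0.497. Each change in this paragraph and the next is therefore with the other measure held fixed, and is not a member's plain relation to that measure. In edgeR's quasi-likelihood test 4 members rose with library total (EED, JARID2, PHF1 and PHF19; 25.4% of all features rose) and 4 fell (EZH2, SUZ12, RBBP4 and MTF2; 42% fell). The changes were small, from -0.07 to 0.15 log2 CPM per SD of log2 total, where 1 SD is 0.827. PHF19 rose by 0.14 (edgeR adjusted p = 4.86e-07) and SUZ12 fell by 0.07 (edgeR adjusted p = 0.00032). JARID2 passed narrowly, at 0.09 with an edgeR adjusted p of 0.0497. EZH1 had a change of -0.00116 and an edgeR adjusted p of 0.939. Within the 46 shallower libraries 1 member passed (PHF19), and among the 47 deeper ones 2 did (PHF1 and PHF19). Each class had fewer libraries and a narrower range of totals, and the share of all features passing in it was not computed. The change of EED turned to -0.12 (edgeR adjusted p = 0.0285) when the class of library at its row was added.

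With dynamic range, 8 of 9 members rose in edgeR's quasi-likelihood test, where 40.4% of all features rose. The change per SD (0.173) was largest for EED at 0.48 log2 CPM, followed by RBBP4 at 0.21 (edgeR adjusted p = 1.59e-19), MTF2 at 0.19 and SUZ12 at 0.18. PHF19 changed by 0.11, EZH1 by 0.09, and EZH2 and PHF1 by 0.08 each. JARID2 measured 0.03 and did not pass (edgeR adjusted p = 0.567). By construction, dynamic range rises with the genes of highest level. Of the 9 members, 6 are among the 2783 features of the top quintile. EED, EZH1 and PHF1 are outside that quintile and rose too, by 0.48, 0.09 and 0.08. JARID2, the member of highest level, did not pass. Whether a place in the top quintile bears on these changes was not tested. With the class of library at the EED row added, 5 members passed, and EZH2, PHF1 and PHF19 no longer did. The share of all features that rose in that model was not computed.

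The question of whether the genes of 1 complex carry the mark in step was asked over all 36 pairs of members. A pair was called where edgeR's quasi-likelihood slope passed at an adjusted p of 0.05 in both directions, each member fitted on the other with library total and dynamic range in the model. By this rule 17 pairs were called, 16 positive and 1 negative. In the single fits, the other 8 members called higher were 2 on EZH2 (5.2% of all features were), 6 on EED (24.5%), 6 on SUZ12 (26.5%), 7 on RBBP4 (27.4%), 7 on MTF2 (25.5%) and 6 on PHF19 (27.4%). On PHF1, 4 were called higher (27.9%) and 1 lower (30.8%). On JARID2, 0 were called higher (5.29%) and 1 lower (5.06%), with 2 higher at an unadjusted p under 0.05, and DESeq2's Wald test also called 0 higher. On EZH1, 0 were called higher (0.417%) and 0 lower (0.316%), with 3 higher at an unadjusted p under 0.05, and DESeq2's Wald test also called 0.

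The absence of calls for EZH1 depended on the model. Without covariates it was called with EED (r = 0.517), SUZ12 (r = 0.632), RBBP4 (r = 0.677), MTF2 (r = 0.630) and EZH2 (r = 0.388), the largest edgeR adjusted p being 0.0013. In that fit on EZH1, 32.1% of all features were called higher and 33.5% lower, against 0.417% and 0.316% with the covariates. With no filter on low counts EZH1 was called with 2 members (3.41% of all features higher, 3.34% lower). Without the 10 shallowest libraries it was called with 4 (7.93% higher, 6.86% lower). With the covariates in the model, EZH1 with RBBP4 (r = 0.268) and with MTF2 (r = 0.258) passed the permutation test of r, at adjusted p of 0.0172 and 0.0213.

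Pearson's r of the residuals of log2 CPM was above 0 in 30 of 36 pairs, with a median of 0.277. Over all 96806655 pairs of features the median was 0.0055, with 5th and 95th percentiles of -0.35 and 0.38. The range differed by member. The 95th percentile of r with all other features was 0.246 for EZH1, 0.297 for JARID2, 0.311 for EZH2 and 0.459 for EED. It was 0.478 for PHF19, 0.524 for MTF2, 0.539 for SUZ12 and PHF1, and 0.548 for RBBP4. The called pair of EED and SUZ12 (r = 0.434) lay under both of its members' values, and that of SUZ12 and RBBP4 (r = 0.742) above both. After Benjamini-Hochberg adjustment over the 36 pairs, 24 passed in a permutation test of r with 100000 resamples. That test was not run on pairs of other features, so the 24 have no share over all features beside them. These counts describe the members, and genes that share broad patterns over libraries are not independent of each other. The lowest p that the permutation test could give was 1e-05, which became 5.14e-05 for r and 4.5e-05 for Spearman's rho after adjustment. Pairs given with those values below are at that floor, so the values do not rank them.

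SUZ12, RBBP4 and MTF2 formed the tightest trio. SUZ12 and RBBP4 had r = 0.742 and Spearman's rho = 0.700 (permutation test, adjusted p = 5.14e-05 and 4.5e-05; larger edgeR adjusted p = 1.2e-13). Their r was 0.722 without the 2 lines farthest from the median of SUZ12, 0.686 within the 46 shallower libraries and 0.698 within the 47 deeper ones. RBBP4 and MTF2 had r = 0.727 and rho = 0.693 (larger edgeR adjusted p = 7.07e-13). SUZ12 and MTF2 had r = 0.689 and rho = 0.606 (larger edgeR adjusted p = 5.4e-11). Without the 2 farthest lines these r were 0.700 and 0.653, both had permutation p of 5.14e-05 for r and 4.5e-05 for rho after adjustment, and both pairs were called in each depth class. In this model the residuals of the scaffold, the histone-binding subunit and a Polycomb-like subunit, on chromosomes 17, 1 and 1, thus ranked the lines in a like order. With 5 principal components of all features as covariates instead, SUZ12 and RBBP4 had r = 0.374 and were still called. RBBP4 and MTF2 then had r = 0.170 and SUZ12 and MTF2 r = 0.162, and neither was called. Each gene also had a closer match at least 20 rows away, at r = 0.836 for SUZ12, 0.836 for RBBP4 and 0.841 for MTF2.

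EZH2 moved with SUZ12 and with MTF2, and with no other member by the pair rule. EZH2 and SUZ12 had r = 0.469 and rho = 0.461 (permutation test, adjusted p = 5.14e-05 and 4.5e-05; larger edgeR adjusted p = 0.000844). Without the 2 farthest lines r was 0.451. It was 0.394 within the shallower libraries, where the pair was not called (edgeR adjusted p = 0.334), and 0.541 within the deeper ones, where it was (edgeR adjusted p = 0.0184). In the shallower libraries the fit on EZH2 called 0% of all features higher and 0% lower, so no pair with EZH2 could be called there. In the deeper ones it called 3.39% higher and 1.98% lower. EZH2 and MTF2 had r = 0.409 and rho = 0.425 (permutation test, adjusted p = 0.00024 and 0.000108; larger edgeR adjusted p = 0.00398). Their r was 0.428 without the 2 farthest lines, 0.379 in shallower libraries and 0.434 in deeper ones, and neither depth class gave a call (edgeR adjusted p = 0.346 and 0.0513). The 2 alternative catalytic genes did not move together detectably, with r = 0.0826 and rho = 0.103 for EZH2 and EZH1 (permutation test, adjusted p = 0.533 and 0.407; larger edgeR adjusted p = 0.733). That value depended on the model: without covariates r was 0.388 and the pair was called (edgeR adjusted p = 0.0013), and without the 2 farthest lines r was 0.222.

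**Figure D4:**
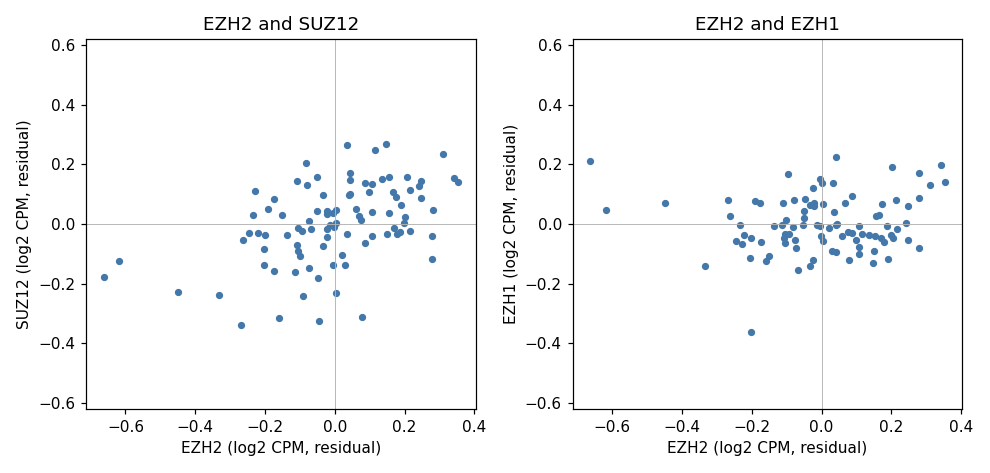
Residual H3K36me3 level of SUZ12 (left) and EZH1 (right) against that of EZH2 (horizontal axes; all in log2 CPM after library total and dynamic range), 1 point per line (n = 93). SUZ12 tracks EZH2 (r = 0.469), while EZH1 spreads little and no slope was called (r = 0.0826).

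EED was called with 5 members, most strongly with MTF2 at r = 0.641 and rho = 0.639 (permutation test, adjusted p = 5.14e-05 and 4.5e-05; larger edgeR adjusted p = 1.22e-09). It was called in both depth classes, at r = 0.559 and 0.764, and r was 0.603 without the 2 farthest lines. With the class of library at the EED row added, r was 0.586 (edgeR adjusted p = 1.73e-06), though the class does not remove the fall among libraries where it lay near EED. Among the Polycomb-like genes, PHF1 and PHF19 had r = 0.590 and rho = 0.536 (permutation test, adjusted p = 5.14e-05 and 4.5e-05; larger edgeR adjusted p = 1.27e-08), with r = 0.525 without the 2 farthest lines and 0.619 and 0.522 in the depth classes. MTF2 and PHF19 were called at r = 0.307 (larger edgeR adjusted p = 0.0105). That call was lost with the class of library at the EED row added (r = 0.198), without covariates (r = 0.205), on the deposited scores (r = 0.215), in the deeper libraries (r = 0.215) and with 5 or 10 principal components (r = 0.03 and -0.0413). PHF1 and MTF2 had r = 0.191 and were not called. JARID2 was called by the pair rule with 1 member, PHF1, and in the opposite direction, with r = -0.327 and rho = -0.343 (permutation test, adjusted p = 0.00341 and 0.00204; larger edgeR adjusted p = 0.033). Without the 2 farthest lines r was -0.317. The shallower libraries gave r = -0.351 and the deeper ones r = -0.336, with no call in either class. The call was also lost with no filter (edgeR adjusted p = 0.0572), without covariates (r = -0.216, edgeR adjusted p = 0.272), on the deposited scores (limma adjusted p = 0.0564), and with 5 or 10 principal components (r = -0.188 and -0.130). In the permutation test of r, JARID2 also passed in the positive direction with EZH2 (r = 0.245, adjusted p = 0.0277) and with MTF2 (r = 0.253, adjusted p = 0.0239).

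Most of the 17 calls were lost with principal components of all features in the model. With the first 5 principal components of all features as covariates in place of library total and dynamic range, the median r of the 36 pairs was 0.0458, and with 10 it was -0.01. With 5 components edgeR's rule called 3 pairs: EZH2 with SUZ12 (r = 0.363, adjusted p = 0.0458), SUZ12 with RBBP4 (r = 0.374, adjusted p = 0.0178) and EZH2 with PHF19 (r = 0.422, adjusted p = 0.0213). The first 2 of these were among the 17, while EZH2 and PHF19 had r = 0.287 before (edgeR adjusted p = 0.0758). Calls over all features were few as well: the share called higher ran from 0.0144% on EZH1 to 4.75% on RBBP4. With 10 components edgeR's rule called 0 of 36 pairs, and 8 pairs had unadjusted p under 0.05 in both directions. The share of all features called higher in those fits ran from 0% on JARID2, MTF2 and PHF19 to 1.68% on SUZ12. EZH2 and SUZ12 then still had r = 0.402 (edgeR adjusted p = 0.0614). PHF1 and PHF19, in contrast, fell to 0.0752 with 5 components and -0.02 with 10. What the components stand for was not tested.

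**Figure D5:**
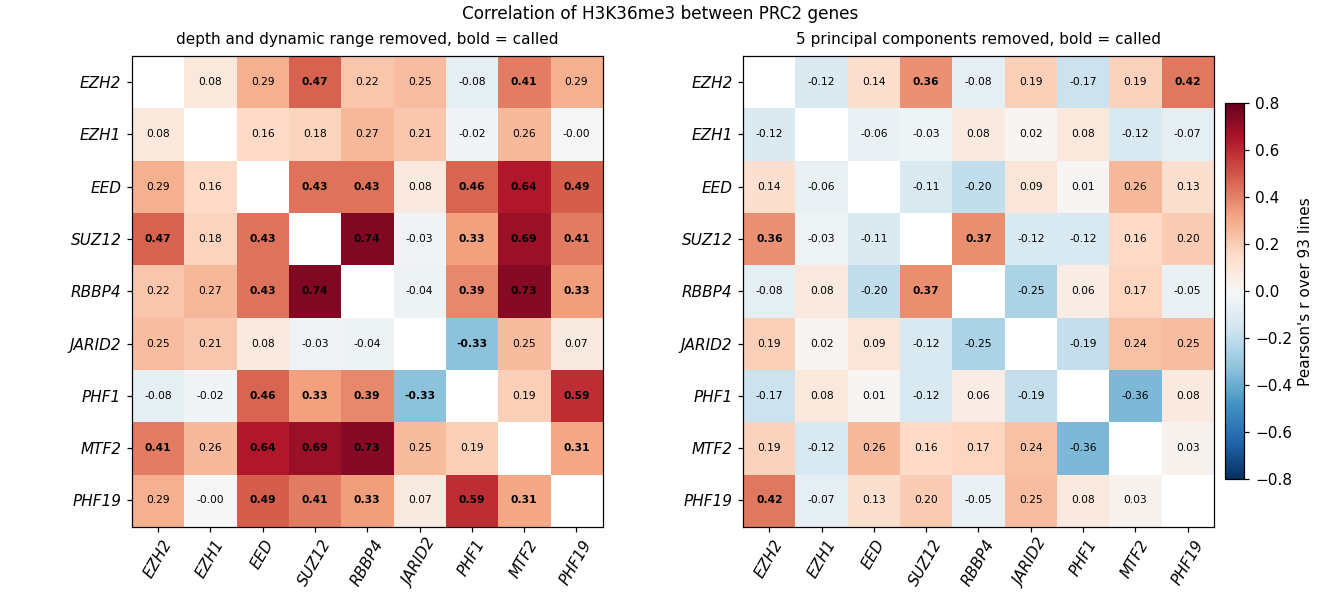
Pearson's r over 93 lines for every pair of PRC2 genes after removal of library total and dynamic range (left) and of 5 principal components (right), with called pairs in bold. The block of SUZ12, RBBP4 and MTF2 (0.689 to 0.742) on the left is weaker on the right, where EZH2 with SUZ12, SUZ12 with RBBP4 and EZH2 with PHF19 are called.

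The members also differed in how far they followed their neighbours in the table. The rows of the 9 members follow chromosome order, but the adjacent rows were not located on the genome. Over all features the mean r with an adjacent row was 0.280 ± 0.286 (SD), and over rows 1 to 3 away it was 0.202. EED had r = 0.899 with the row before it and 0.875 with the row after it, beside the fall in counts described above. PHF1 had a mean r of 0.507 over the 6 nearest rows, MTF2 0.450, RBBP4 0.323 and JARID2 0.257. EZH2, PHF19 and EZH1 had 0.109, 0.0988 and 0.0744, and SUZ12 had -0.02, although it had r = 0.636 with the row before it. These values are descriptions, since neighbouring features can share reads.

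Among features at least 20 rows away, the closest match of any member was ENSG00000138081.21, with r = 0.841 to MTF2 over the 93 lines. RBBP4 had r = 0.836 with ENSG00000143549.21. EZH1 had the weakest closest match, at r = 0.485, and EZH2 had 0.624. Of the 27 closest matches, 3 for each member, 0 were other members. The other 8 members are a very small part of the 13914 other features, so this count says little about the members.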

How the data were processed

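H3K36me3 CUT&Tag was analysed in 93 lines, 1 library each. The deposited counts per feature were used as given; HISAT2 2.2.1, bedtools and hg38 come from the submitters' processing notes, which assign them no role. No source used here says how reads were filtered or over which intervals they were counted. The deposited normal scores, whose sorted values are alike in every library, served as an alternative. Members were matched by identifier and named from the rule that chose them; all 9 were found in RefSeq (GRCh38.p14) by symbol, but 0 of the files' identifiers matched its Ensembl column, so other gene lists and marker lists could not be used. Named features besides the members are the 3 with the highest r at least 20 rows away, of which at most 2 identifiers are printed. The members and lists were chosen with earlier results of these data known.

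The filter of 10 or more counts in 47 or more libraries kept 13915 features. edgeR 4.0.16 (TMM, prior count 2) gave goodness-of-fit and quasi-likelihood tests with dynamic range and the log2 library total in the model and Benjamini-Hochberg adjustment over all features. DESeq2 1.42.0 and limma 3.58.1 (on the scores) were alternatives, as were other filters, scalings, covariates and depth classes. The fits were checked on simulated data. Counts from PCR-amplified fragments are not independent molecules, so counting error is a lower limit.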

Additional observations from a re-analysis of the deposited data

How the results depend on the processing

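No paired analysis was possible because the labels give 1 group. EED and JARID2 were called variable in every edgeR setting tried, with own dispersions 1.09 to 2.12 and 0.53 to 1.61 log2 above the trend, while DESeq2's dispersion outliers held 0 members against 2. Against 17 pairs called, edgeR's rule called 11 among the 46 shallower libraries (11 of them among the 17), 11 among the 47 deeper ones (9 among the 17), 3 with 5 principal components (2 among the 17) and 0 with 10. The share of all features called higher in the fit on each member fell in these settings too. On SUZ12 it went from 26.5% to 16.5%, 12%, 4.18% and 1.68%, in the same order. Fewer libraries enter the depth classes, and the cause of the other changes was not tested. Scaling by DESeq2's size factors, a prior count of 0.5 and DESeq2's Wald test each called 17, the same pairs. No filter called 20 and kept 16 of the 17, at least 50 counts called 18 and kept 17, no covariates called 19 and kept 12, and leaving out the 10 shallowest libraries called 24 and kept 17. Adding the class of library at the EED row called 17 and kept 16, and limma on the deposited scores called 12, all among the 17. Members that moved with library total numbered 8, against 1 among shallower and 2 among deeper libraries, and those that moved with dynamic range 8, against 5 with the class added. For these lower counts the share of all features was not computed.

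The following directions turned among the 17 pairs, EZH2 with EZH1, and the members' other values; the cause was not tested. With 5 components r was -0.117 for EZH2 and EZH1, -0.114 for EED and SUZ12, -0.197 for EED and RBBP4, -0.122 for SUZ12 and PHF1, and -0.0532 for RBBP4 and PHF19. With 10 components the same pairs gave -0.0973, -0.0405, -0.0735, -0.263 and -0.131, and r was -0.0281 for EED and PHF1, -0.0900 for RBBP4 and PHF1, -0.0201 for PHF1 and PHF19, and -0.0413 for MTF2 and PHF19. In all, 7 of the 19 pairs outside the 17 turned with 5 components and 11 with 10, among them PHF1 and MTF2 (r = 0.191, then -0.359 and -0.348), EZH2 and RBBP4 (r = 0.225, then -0.0781 and -0.107), EZH1 and MTF2 (r = 0.258, then -0.119 and -0.111) and EZH1 and EED (r = 0.162, then -0.0623 and -0.0247). Other settings turned at most 3 pairs, none of them among the 17. The log2 ratio of own to trended dispersion of PHF1 was 0.0368 with no filter, 0.113 with at least 50 counts and 0.176 without the 10 shallowest libraries, and that of MTF2 was 0.0379 without covariates. Per SD of library total, EZH1 changed by 0.0143 with size factors, 0.0139 in the Wald test, 0.00467 without the 10 shallowest, 0.0292 among shallower and 0.0212 among deeper libraries. EED changed by -0.119 with the class added and RBBP4 by 0.00722 in the deeper libraries. Per SD of dynamic range, JARID2 changed by -0.00146 with the class added. The scores could not be used for the ratio of EZH2 to EZH1, because they are in another unit. Counts limited PHF1 most, with 83 in its lowest library.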
